A study of Homo sapiens with 3 samples.

Results

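The protein 4.1 family and the adducins are 10 human genes, 7 of the protein 4.1 family (EPB41, EPB41L1, EPB41L2, EPB41L3, EPB41L4A, EPB41L4B and EPB41L5) and 3 adducins (ADD1, ADD2 and ADD3). They were matched by symbol to the Ensembl identifiers of a count table of 22827 genes, and all 10 were found. The families were chosen for description because EPB41L3 was higher in both knockouts and ADD3 was lower in the SIRT7 knockout, so those differences are given as descriptions of these libraries. The 3 RNA-seq libraries came from cells labelled Hep3B, a hepatocellular carcinoma line, 1 each with a knockout of USP39 (USP39-KO), with a knockout of SIRT7 (SIRT7-KO) and labelled control. USP39 is a ubiquitin-specific protease homologue of the spliceosome and SIRT7 a nuclear NAD-dependent deacylase; the labels give neither the way the knockouts were made nor whether each line is 1 clone.

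The membrane skeleton is a lattice of spectrin tetramers under the plasma membrane, tied together at short actin filaments. Protein 4.1 strengthens the spectrin-actin contact and, through its FERM domain, fastens the lattice to membrane proteins. Adducins cap the fast-growing end of the actin filament and bring spectrin to it; they work as assemblies of the alpha subunit ADD1 with the beta subunit ADD2 or the gamma subunit ADD3. In epithelial cells the same proteins line the lateral membrane at sites of cell contact, and EPB41L3 is known as a gene that is silenced in several carcinomas.

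In both knockout libraries EPB41L3 was higher and EPB41L4A and ADD3 were lower than in the control. EPB41L3 was 6.53-fold higher in USP39-KO and 50.3-fold higher in SIRT7-KO, and ADD3 was 4.44-fold lower in USP39-KO and 69.8-fold lower in SIRT7-KO. EPB41L4A was 3.58-fold lower in USP39-KO and 7.98-fold lower in SIRT7-KO. EPB41, EPB41L1, EPB41L2, EPB41L4B and ADD1 all lay within 1.5-fold of the control in both knockouts. A gene was called higher or lower when it differed at least 2-fold and the 95% interval of its log2 ratio, an exact conditional binomial interval of the 2 counts, excluded 0. Each group has 1 library and so no replicates, which leaves no test and no p-value to give: intervals cover counting error only and compare libraries, not conditions.

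The 250 bases before an annotated start (RefSeq, GRCh38.p14) are shown for the 3 members that were called in both knockouts, with each CpG dinucleotide in capitals. For EPB41L3, with 4 annotated starts, and ADD3, with 3, the window with the most CpG dinucleotides is printed.
EPB41L3, chr18:5628992-5629241, minus strand: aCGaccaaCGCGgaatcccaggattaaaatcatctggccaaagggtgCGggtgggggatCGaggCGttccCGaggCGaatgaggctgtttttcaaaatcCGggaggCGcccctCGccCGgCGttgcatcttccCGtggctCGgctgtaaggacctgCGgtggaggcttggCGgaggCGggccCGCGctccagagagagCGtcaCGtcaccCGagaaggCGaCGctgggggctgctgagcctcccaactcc
EPB41L4A, chr5:112419278-112419527, minus strand: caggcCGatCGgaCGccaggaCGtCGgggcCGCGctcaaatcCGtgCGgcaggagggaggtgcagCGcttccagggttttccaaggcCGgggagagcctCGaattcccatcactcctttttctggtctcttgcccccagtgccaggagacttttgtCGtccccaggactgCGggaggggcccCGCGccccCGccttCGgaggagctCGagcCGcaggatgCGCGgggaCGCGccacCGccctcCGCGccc
ADD3, chr10:110007734-110007983, plus strand: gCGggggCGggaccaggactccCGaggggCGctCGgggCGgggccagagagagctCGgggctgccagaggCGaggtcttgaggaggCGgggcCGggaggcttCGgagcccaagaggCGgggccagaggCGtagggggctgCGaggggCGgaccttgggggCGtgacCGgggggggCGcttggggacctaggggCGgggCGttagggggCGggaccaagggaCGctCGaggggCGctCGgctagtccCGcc
These windows held 25, 27 and 26 CpG dinucleotides, against a median of 11 over 35116 windows of the same length before RefSeq starts. The gene that was higher and both genes that were lower thus had printed windows above that median, at percentiles 78.4, 82.3 and 80.4. For EPB41L3 and ADD3 the densest of several windows was set against single windows, which favours a high count. Nothing about the called genes is read from this. The other EPB41L3 windows held 23, 4 and 2 CpG dinucleotides, and the other ADD3 windows, both upstream of the one printed, held 2 each. Members that differed little from the control had dense windows too, with 29 CpG dinucleotides before ADD1, 22 before the denser of 2 EPB41 starts and 35 before the densest of 4 EPB41L2 starts. The motif GGGCGG (or CCGCCC on the other strand), known as a GC box, occurred 5 times in the printed ADD3 window, with overlapping matches counted, once in that of EPB41L4A and not in that of EPB41L3; 42.6% of all windows held it. CCAAT, read on both strands, was in none of the 3 printed windows and in 32.0% of all windows. TATAAA, read on both strands, was likewise in none of the 3 and in 10.7% of all windows. Gene-level counts show neither DNA methylation nor which start was in use.

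The libraries summed to 16630636 counts in USP39-KO, 16151522 in SIRT7-KO and 19427940 in the control. USP39 itself had 64.8 CPM (counts scaled to effective library size) in USP39-KO, 92.6 in SIRT7-KO and 94.1 in the control, and SIRT7 had 37.3 CPM in SIRT7-KO, 49.1 in USP39-KO and 50.6 in the control. Both targets had their lowest level where the label says they were knocked out, without passing the 2-fold rule. Of 17 liver markers, 7 (ALB, AFP, TTR, APOA2, APOB, APOH and GPC3) had a listed count of 0 throughout, so the defining secreted proteins of the labelled cell type were absent from these counts; the list summed to 1587, 1720 and 2076 CPM in USP39-KO, SIRT7-KO and control, nearly all from the keratins KRT8 and KRT18. Single liver markers of low count differed alongside the members: the liver transcription factor HNF4A had 29 reads in USP39-KO, 7 in SIRT7-KO and 113 in the control (log2 ratio to control -1.71 and -3.68), and the fibrinogen chain FGB had 1, 2 and 55 (-5.01, -10.87 to -3.0, and -4.25, -7.61 to -2.61), both called lower in both knockouts. The fibrinogen chain FGG, with 0, 16 and 2 reads, was called higher in SIRT7-KO (2.95, 1.16 to 6.42). A 0 here does not show that a gene was silent: cytoplasmic actin ACTG1, which nearly all cells express, was also listed at 0 in every library. Of 11 erythroid markers 6 were at 0 in all libraries and the list summed to 1.09, 1.04 and 1.18 CPM. Fibroblast markers (COL1A2 at 0) summed to 366, 410 and 392 CPM, mostly from VIM and COL1A1. Neural markers (ELAVL3, ELAVL4, NEFM and STMN2 at 0) summed to 24.1, 16.1 and 19.8 CPM. Within the neural list SNAP25 was lower in SIRT7-KO (log2 ratio -1.33), TUBB3 higher in SIRT7-KO (1.13) and MAP2 higher in USP39-KO (1.11). Leukocyte markers (PTPRC and CD68 at 0) summed to 3.83, 4.78 and 3.81 CPM and endothelial markers (KDR at 0) to 0.729, 0.919 and 1.13 CPM, in the same order of libraries. Of the other lists, the smooth muscle actin ACTA2 was higher in both knockouts (5, 14 and 0 reads) and the receptor TEK lower in USP39-KO (1, 3 and 10 reads; log2 ratio -2.61, -8.52 to -0.27). Their part in the results below was not tested.

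**Figure D1:**
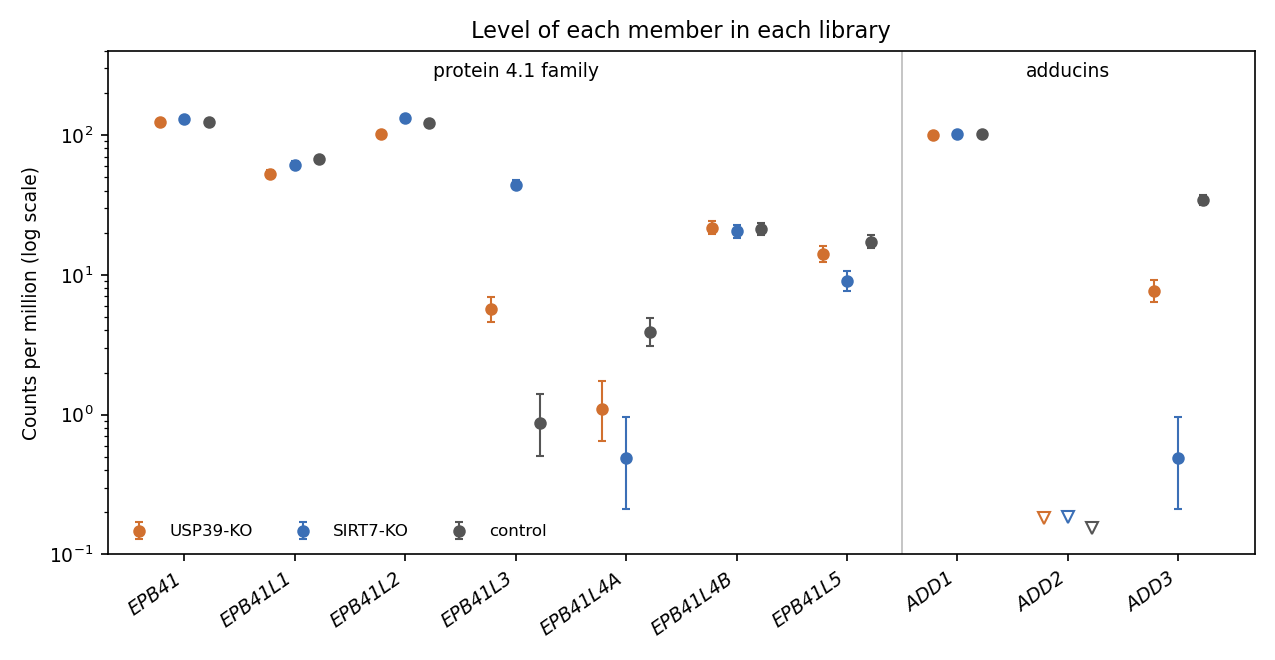
Level of each member in CPM (log scale) in USP39-KO, SIRT7-KO and control, 1 library each. Bars are exact Poisson 95% intervals of the count, and open triangles mark 3 counts per library where 0 reads were listed. EPB41L3 sits highest in SIRT7-KO and lowest in the control, ADD3 and EPB41L4A the other way round, and EPB41, EPB41L4B and ADD1 are nearly level.

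Of the 10 members, 9 had reads in every library and passed the filter, a count of 10 or more in any library. ADD2, the beta adducin of red cells and brain, was listed at 0 reads in all 3. If its reads were counted at all, a limit of 3 counts is 0.182, 0.184 and 0.154 CPM in USP39-KO, SIRT7-KO and control. As with ACTG1, the listed 0 does not show that ADD2 was silent. Levels of different genes were compared as CPM per kilobase of the listed gene length. By that listed length EPB41, the founding member known from the red cell, was the highest in all 3 libraries. It had 14.9 CPM per kilobase in USP39-KO, 15.7 in SIRT7-KO and 15.0 in the control. EPB41L2, the widely expressed general-type protein, came second at 9.90, 12.9 and 11.9 CPM per kilobase in the same order of libraries. EPB41L1, the neuronal-type protein, and ADD1 followed at 6.66 and 7.61 in USP39-KO, 7.73 and 7.76 in SIRT7-KO and 8.55 and 7.77 in the control. Their intervals overlapped in SIRT7-KO and in the control but not in USP39-KO. This order rests on the listed lengths. For EPB41 that length was 8282 bases, while its annotated exons together cover 19993 bases. The paired lengths were 7859 and 9674 for EPB41L1, 10247 and 10320 for EPB41L2, and equal for ADD1. By exon length EPB41 would fall below EPB41L2 and ADD1 in all 3 libraries, so its first place holds for the listed lengths only. In CPM without length, EPB41L2 was above EPB41 in SIRT7-KO (133 against 130). EPB41 was above EPB41L2 in USP39-KO (123 against 101) and in the control (124 against 122).

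The lower ranks differed between the libraries. EPB41L3 was the eighth of the 9 members with reads in USP39-KO (0.520 CPM per kilobase), the fifth in SIRT7-KO (4.01) and the lowest in the control (0.0797). ADD3 was the seventh in USP39-KO (1.18 CPM per kilobase), the eighth in SIRT7-KO (0.0749) and the fifth in the control (5.23). EPB41L4A was the lowest in both knockouts and the eighth in the control. Neighbours in the order whose intervals overlapped were EPB41L5 and ADD3 in USP39-KO, ADD3 and EPB41L4A in SIRT7-KO, and the EPB41L1 and ADD1 pairs named above.

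In the protein 4.1 family, EPB41L3 (ENSG00000082397; chromosome 18, 5392381 to 5630700, minus strand, in the GENCODE 29 annotation of GRCh38) encodes protein 4.1B, also called DAL-1, which binds the adhesion molecule CADM1. It had 94 reads in USP39-KO, 718 in SIRT7-KO and 17 in the control, or 5.71, 44.0 and 0.875 CPM. The Poisson intervals of the 3 levels did not overlap (4.62 to 6.99, 40.8 to 47.3 and 0.510 to 1.40 CPM). The log2 ratio to the control was 2.67 in USP39-KO (1.95 to 3.55) and 5.61 in SIRT7-KO (4.96 to 6.44). SIRT7-KO was 7.70-fold above USP39-KO (6.21 to 9.66). Of the reads of the protein 4.1 family, EPB41L3 took 1.79% in USP39-KO (exact binomial 95% interval 1.45 to 2.18%), 11.1% in SIRT7-KO (10.3 to 11.9%) and 0.245% in the control (0.143 to 0.392%).

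EPB41L4A (ENSG00000129595; chromosome 5, 112142441 to 112419316, minus strand), a FERM protein that lacks the spectrin-actin binding domain of the founding member, had 18 reads in USP39-KO, 8 in SIRT7-KO and 76 in the control. These were 1.09, 0.490 and 3.91 CPM, and the intervals of the knockouts (0.648 to 1.73 and 0.212 to 0.966 CPM) overlapped each other but not that of the control (3.08 to 4.90 CPM). The log2 ratio to the control was -1.81 in USP39-KO (-2.67 to -1.08) and -2.93 in SIRT7-KO (-4.26 to -1.95). Between the knockouts it was -1.11 for SIRT7-KO against USP39-KO (-2.57 to 0.12), an interval that includes 0. EPB41L4A rests on few reads and left the calls when a count of 100 or more in any library was required.

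EPB41L5 (ENSG00000115109; chromosome 2, 120013005 to 120179119, plus strand), which binds Crumbs proteins and acts in epithelial-mesenchymal transition in mouse embryos, had 233 reads in USP39-KO, 147 in SIRT7-KO and 336 in the control, or 14.2, 9.01 and 17.3 CPM. SIRT7-KO lay below the other libraries with no overlap of its interval (7.61 to 10.6 CPM), while USP39-KO (12.4 to 16.1 CPM) overlapped the control (15.5 to 19.2 CPM). The log2 ratio to the control was -0.29 in USP39-KO (-0.54 to -0.04) and -0.94 in SIRT7-KO (-1.23 to -0.66). EPB41L5 therefore stayed just inside the 2-fold rule in SIRT7-KO, and a 1.5-fold rule called it lower there and in SIRT7-KO against USP39-KO.

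The remaining family members varied little. EPB41 (ENSG00000159023) had 123, 130 and 124 CPM in USP39-KO, SIRT7-KO and control, with log2 ratios to the control of -0.01 in USP39-KO and 0.06 in SIRT7-KO whose intervals included 0. EPB41L4B (ENSG00000095203), also known as EHM2, had 21.8, 20.5 and 21.4 CPM, with log2 ratios of 0.03 and -0.06 and intervals that included 0. EPB41L1 (ENSG00000088367) had 52.3, 60.8 and 67.2 CPM, a log2 ratio of -0.36 in USP39-KO (-0.49 to -0.24) and -0.15 in SIRT7-KO (-0.27 to -0.02). EPB41L2 (ENSG00000079819) had 101, 133 and 122 CPM, a log2 ratio of -0.27 in USP39-KO (-0.36 to -0.18) and 0.12 in SIRT7-KO (0.03 to 0.20). The pair EPB41L1 and EPB41L2 was lowest in USP39-KO, by more than counting error and far less than 2-fold.

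**Figure D2:**
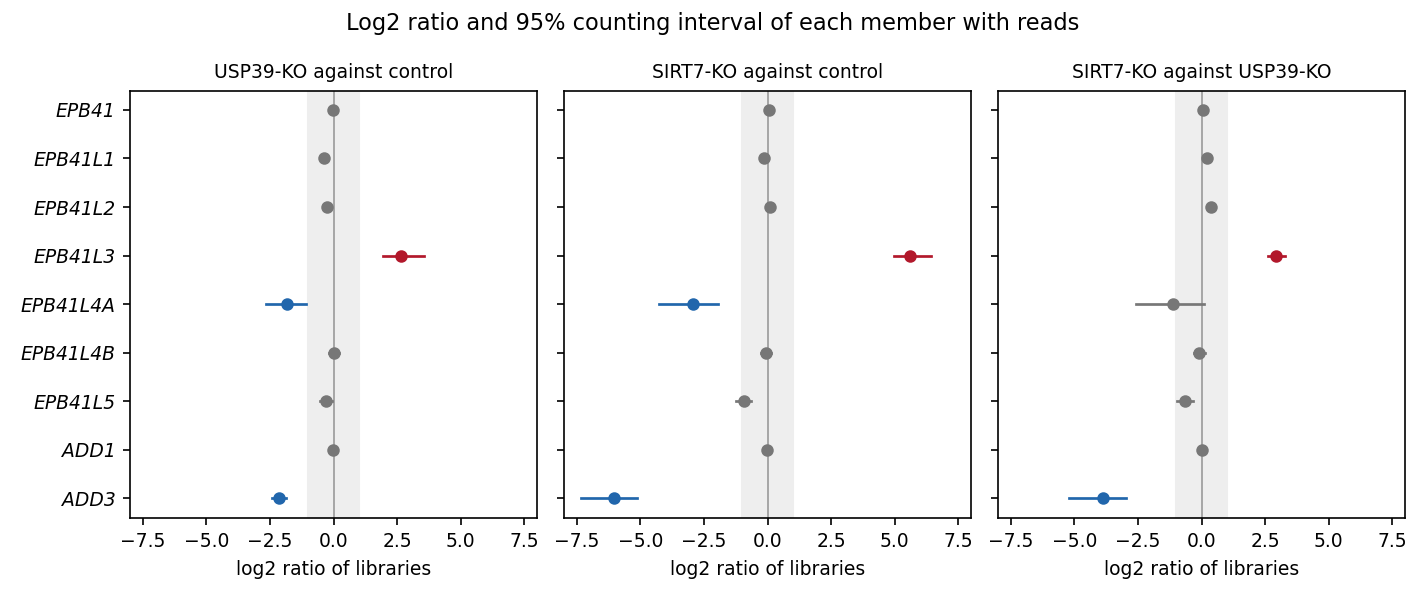
Log2 ratio of each of the 9 members with reads (points) and its exact 95% counting interval (lines) for USP39-KO against control, SIRT7-KO against control and SIRT7-KO against USP39-KO; grey shading spans less than 2-fold, red marks higher and blue lower by the rule. EPB41L3 lies to the right in all 3 panels and ADD3 to the left.

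Among the adducins, ADD3 (ENSG00000148700; chromosome 10, 109996368 to 110135565, plus strand), the gamma subunit of most tissues outside red cells, had 127 reads in USP39-KO, 8 in SIRT7-KO and 665 in the control. These were 7.72, 0.490 and 34.2 CPM, and none of their intervals overlapped (6.43 to 9.18, 0.212 to 0.966 and 31.7 to 36.9 CPM). The log2 ratio to the control was -2.15 in USP39-KO (-2.43 to -1.87) and -6.05 in SIRT7-KO (-7.34 to -5.14). ADD3 was 15.7-fold lower in SIRT7-KO than in USP39-KO (7.75 to 37.3).

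ADD1 (ENSG00000087274; chromosome 4, 2843857 to 2930076, plus strand), the alpha subunit that partners the others, differed little, with 1641 reads in USP39-KO, 1659 in SIRT7-KO and 1979 in the control, or 99.7, 102 and 102 CPM. Its log2 ratio to the control was -0.03 in USP39-KO (-0.13 to 0.06) and 0.00 in SIRT7-KO (-0.10 to 0.09). ADD3 accordingly took 7.18% of adducin reads in USP39-KO (6.02 to 8.49%), 0.480% in SIRT7-KO (0.207 to 0.943%) and 25.2% in the control (23.5 to 26.9%). Read shares favour the longer ADD1. Per listed length ADD3 made up 13.4% of the adducins in USP39-KO, 0.957% in SIRT7-KO and 40.2% in the control. ADD2 entered these shares, and the adducin sums that follow, at its listed 0. Per listed length, the adducins summed to 8.79 CPM per kilobase in USP39-KO, 7.83 in SIRT7-KO and 13.0 in the control. On the same scale the protein 4.1 family summed to 36.4, 44.0 and 40.6, values that depend on the EPB41 length given above. The adducin sum was thus lower in both knockouts with little difference in ADD1, and the protein 4.1 sum differed by far less than its member EPB41L3 did.

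**Figure D3:**
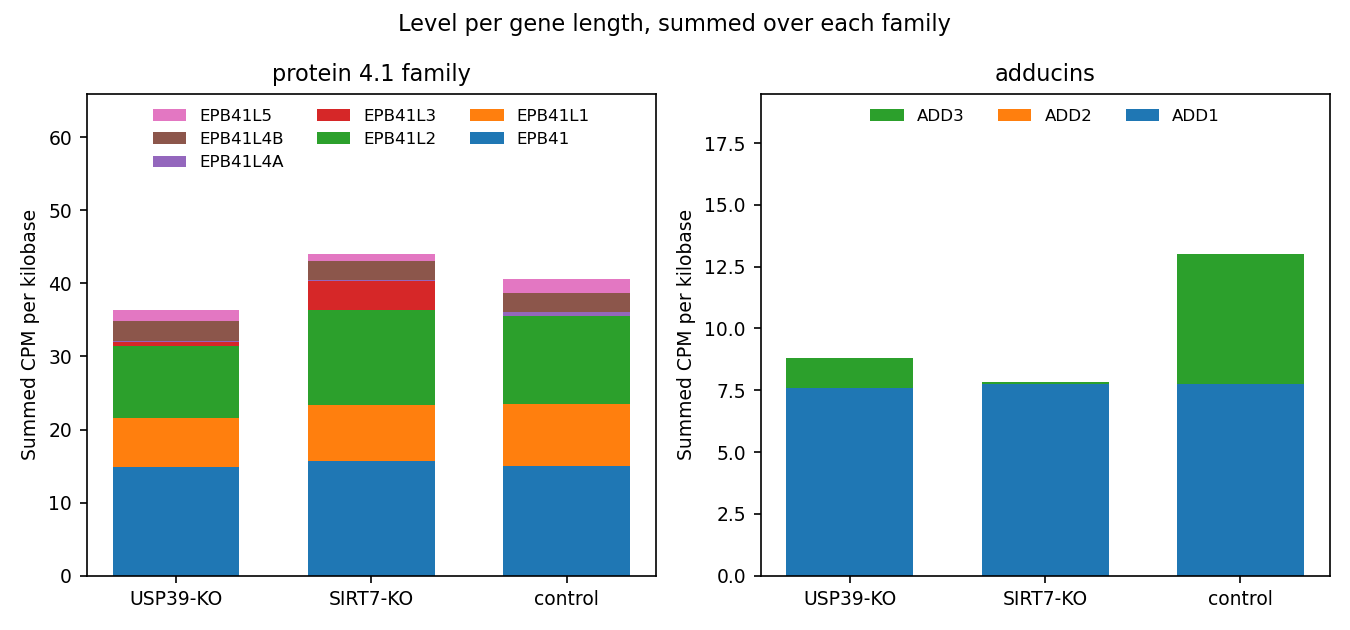
Summed CPM per kilobase of listed gene length for the protein 4.1 family (left) and the adducins (right) in USP39-KO, SIRT7-KO and control. Each bar is 1 library, with no error shown, and colours are genes. The ADD3 segment is 1.18, 0.0749 and 5.23 CPM per kilobase and the EPB41L3 segment 0.520, 4.01 and 0.0797, in the order of the bars.

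Against all genes kept, the members were read as follows. In USP39-KO against control, 1 of 9 measured members was higher and 2 were lower, where 4.86% of 12726 genes were called either way (1.49% higher, 3.37% lower). In SIRT7-KO against control, 1 was higher and 2 were lower, where 7.06% of genes were called (3.02% higher, 4.05% lower). In SIRT7-KO against USP39-KO, EPB41L3 was higher and ADD3 lower, where 8.54% of genes were called (5.03% higher, 3.51% lower). The choice of the families used EPB41L3 in both knockouts and ADD3 in SIRT7-KO, so nothing is read from these shares. The median log2 ratio of the 9 members was -0.27 in USP39-KO against control and -0.06 in SIRT7-KO against control, beside 0.00 and -0.01 over all genes. EPB41L3 stood at percentile 99.79 of all log2 ratios in USP39-KO and 99.97 in SIRT7-KO, and ADD3 at percentile 1.12 and 0.047. These percentiles restate the choice, except that of ADD3 in USP39-KO, and nothing is read from them either.

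**Figure D4:**
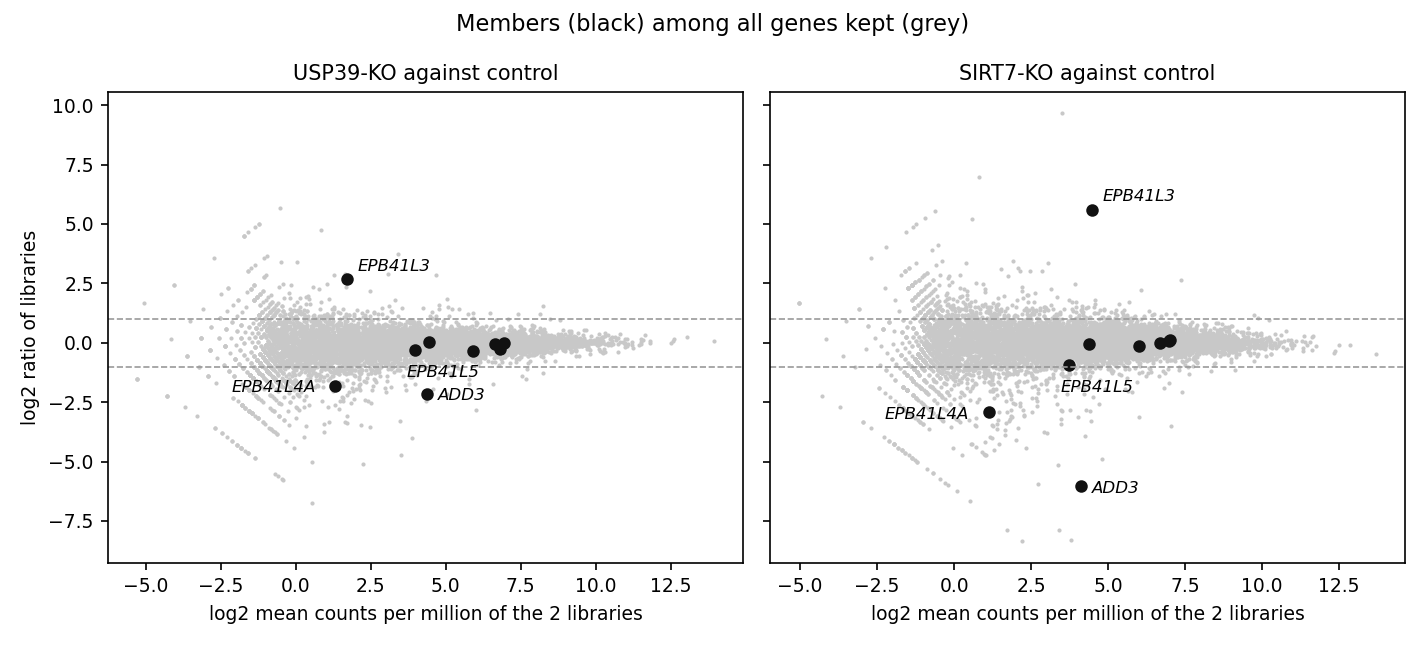
Log2 ratio of the libraries against log2 mean CPM for all genes that reached 10 counts in any library (grey) and for the 9 members with reads (black); dashed lines mark 2-fold. EPB41L3, EPB41L4A and ADD3 lie outside the dashed lines in both panels, EPB41L5 lies just inside the lower line in SIRT7-KO, and the members not named in the plot lie close to 0.

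The annotation around the 3 called members was read next. Of GENCODE 29 genes that overlap a member, ADD3-AS1, on the strand opposite to ADD3, was listed at 0 reads in all libraries. TMEM200B, opposite to EPB41, had 46, 58 and 78 reads in USP39-KO, SIRT7-KO and control. The other overlapping genes were not among the 22827 genes listed with counts. No source used here says whether reads were counted by strand, so reads of opposite genes could not be told apart. Neighbours were taken as the 10 nearest kept genes on each side. Of all genes, 1.49% were called higher and 3.37% lower in USP39-KO, and 3.02% and 4.05% in SIRT7-KO. Around EPB41L3, 1 of 20 was higher and 1 lower in USP39-KO (LAMA1 and NDUFV2, log2 ratio 1.19 and -1.39) and none was called in SIRT7-KO, where their log2 ratios ran from -1.61 to 0.49. Around ADD3, 1 of 20 was lower in USP39-KO: ACSL5 (-2.10, -3.93 to -0.80, from 5 reads against 27). In SIRT7-KO CFAP43 (1.09) was higher and CFAP58 (-1.16) lower. The genes directly beside ADD3 lay within 1.5-fold of the control, with XPNPEP1 at 0.01 and MXI1 at -0.35 in USP39-KO and at -0.20 and 0.12 in SIRT7-KO. The counting intervals of MXI1 in both knockouts and of XPNPEP1 in SIRT7-KO excluded 0. Around EPB41L4A none of 20 was called in USP39-KO and 1, TSLP (-3.34, -9.22 to -1.16, from 1 read against 17), was lower in SIRT7-KO. In SIRT7-KO no neighbour of EPB41L3 or ADD3 came near the log2 ratios of 5.61 and -6.05 of those genes. In USP39-KO, however, ACSL5 was close to ADD3 itself (-2.15). In SIRT7-KO TSLP was further below the control than EPB41L4A (-2.93). Both neighbours had few reads.

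The genes most like EPB41L3 and ADD3 were found by the Euclidean distance between their log2 ratios to the control in USP39-KO and SIRT7-KO, over the 3 libraries, among 10044 protein-coding genes that reached 100 counts in any library. Nearest to EPB41L3 (2.67 and 5.61) were the protease inhibitor SPINK6 (1.85 and 6.30, distance 1.07), the metalloreductase STEAP4 (2.46 and 3.43, 2.19), PRUNE2 (3.74 and 3.36, 2.49), the kinase PRKCB (1.43 and 3.03, 2.86) and the ubiquitin ligase PJA1 (0.92 and 3.15, 3.02). Nearest to ADD3 (-2.15 and -6.05) were the hexokinase family member HKDC1 (-2.15 and -4.89, distance 1.16), EPS8L3 (-3.29 and -5.14, 1.46), the homeobox gene DRGX (-1.66 and -4.41, 1.71), the calcium release channel RYR1 (0.06 and -5.93, 2.20) and CPVL (-0.91 and -4.07, 2.33). No gene at this filter lay within a distance of 1 of either. With at least 10 counts as the filter, genes of fewer reads came closer: SELENOP (distance 0.066) and MUC5AC (0.229) to ADD3, and CALY (0.766) to EPB41L3, each with 0 reads in 1 library, so that its ratio and distance depend on the prior. At that filter 1 of the 5 nearest genes was shared for each, SPINK6 and HKDC1.

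Partners of the membrane skeleton were read in 9 lists of 101 genes, chosen from the known biology with earlier results of these data known; 85 passed the filter. In USP39-KO against control 4 of 85 were higher and 4 lower, beside 1.49% and 3.37% of all genes, and in SIRT7-KO against control 4 were higher and 6 lower, beside 3.02% and 4.05%. The same shares of all genes stand beside the counts of each list below. The median over the 85 was -0.06 in USP39-KO and 0.05 in SIRT7-KO on the log2 scale. Within 1.5-fold of the control lay 68 of the 85 in USP39-KO, where 86.3% of all genes did, and 64 in SIRT7-KO, where 81.0% did.

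Spectrins, the rods of the lattice, were close to the control in their abundant members: SPTAN1, the alpha chain of non-red cells, had a log2 ratio of -0.25 in USP39-KO and -0.44 in SIRT7-KO, and its beta partner SPTBN1 -0.11 and 0.09. SPTBN4 was the 1 of 6 measured spectrins past the rule, with 148 reads in USP39-KO, 147 in SIRT7-KO and 87 in the control, a log2 ratio of 1.00 in both (0.61 to 1.40 and 0.62 to 1.41). It stood at the edge of the rule, and was not called in either knockout with upper quartile factors or a prior of 2 counts, nor in USP39-KO without a normalization factor. Ankyrins tie spectrin to membrane proteins, and ANK2 was lower in both knockouts, with 1 read in USP39-KO, 7 in SIRT7-KO and 30 in the control (log2 ratio -4.15, -10.02 to -2.08, and -1.78, -3.28 to -0.63). ANK3, the ankyrin of epithelial lateral membranes, had -0.16 and -0.33, and ANK1 was higher in SIRT7-KO than in USP39-KO (1.23) without a call against the control. The spectrin median was -0.18 in USP39-KO and -0.23 in SIRT7-KO, and the median of the 3 ankyrins -0.53 and -0.33.

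Proteins of the actin junction, where adducin also sits, lay within 1.5-fold of the control for 11 of 12 genes in USP39-KO and 8 in SIRT7-KO. Of all genes, 86.3% and 81.0% did. None of 12 measured passed the rule in USP39-KO, where the capping protein subunit CAPZA1 had the largest ratio among genes of at least 100 counts (-0.45). In SIRT7-KO the tropomodulin TMOD2, which caps the slow-growing end of actin filaments, was higher, with 50 reads in SIRT7-KO against 24 in the control (log2 ratio 1.29, 0.58 to 2.08). Inside the rule there, DMTN (-0.80, -1.08 to -0.52) and TPM1 (-0.64, -0.73 to -0.56) were lower and TMOD1 (0.74, 0.28 to 1.21) higher than the control. In SIRT7-KO against USP39-KO both TMOD1 (1.43) and TMOD2 (1.46) were higher. The list median was -0.12 in USP39-KO and 0.14 in SIRT7-KO.

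Among 10 measured membrane anchors, USP39-KO had 2 higher and 1 lower than the control, beside 1.49% and 3.37% of all genes. SIRT7-KO had none called, beside 3.02% and 4.05%. The higher genes were RHAG, a red cell membrane glycoprotein, with 88 reads in USP39-KO, 8 in SIRT7-KO and 20 in the control (log2 ratio 2.35 in USP39-KO, 1.66 to 3.16), and EPB42, the red cell protein 4.2, with 14, 4 and 5 reads (1.62, 0.17 to 3.55). Both were also lower in SIRT7-KO than in USP39-KO (-3.37 and -1.68). The laminin receptor BCAM was lower in USP39-KO, with 113 reads against 298 in the control (-1.16, -1.49 to -0.84). In SIRT7-KO the largest ratio among anchors of at least 100 counts was that of the hyaluronan receptor CD44 (0.32). The list median was 0.01 in USP39-KO and -0.09 in SIRT7-KO.

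Among genes with a related FERM domain, all 4 ERM proteins and merlin lay within 1.5-fold of the control in both knockouts. Of 21 other genes, 18 did in USP39-KO and 17 in SIRT7-KO, close to the 86.3% and 81.0% of all genes. Of the ERM proteins and merlin none of 4 passed the rule, and the largest ratios were -0.25 for MSN in USP39-KO and -0.27 for EZR in SIRT7-KO; the list medians were 0.02 and -0.04. Of 21 other FERM domain genes, FRMD5 was lower in USP39-KO (13 reads against 47 in the control, log2 ratio -1.58, -2.63 to -0.71) and MYLIP, a ubiquitin ligase of the LDL receptor, was higher in SIRT7-KO (229 reads against 120, 1.18, 0.86 to 1.51) and had 0.91 in USP39-KO. The sorting nexin SNX27 lay just inside the rule in SIRT7-KO, with 1464 reads against 881 in the control (0.98, 0.86 to 1.11), and had 0.09 in USP39-KO. FRMD5 (1.28) and FRMD4B (1.22) were higher in SIRT7-KO than in USP39-KO. The list medians were -0.03 in USP39-KO and 0.08 in SIRT7-KO.

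Of 11 measured partners of EPB41L3, 10 lay within 1.5-fold of the control in each knockout. Of all genes, 86.3% did in USP39-KO and 81.0% in SIRT7-KO. CADM1, the adhesion molecule it binds, had log2 ratios of -0.17 in USP39-KO and 0.12 in SIRT7-KO, and the arginine methyltransferases PRMT3 (0.04 and 0.05) and PRMT5 (0.01 and -0.03) were level. CADM4, a relative of CADM1, was the 1 of 11 measured partners called, lower in SIRT7-KO with 95 reads against 234 in the control (-1.05, -1.41 to -0.70), and had -0.98 in USP39-KO, just inside the rule. The list medians were 0.04 in USP39-KO and 0.05 in SIRT7-KO.

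Genes of the Crumbs complex, an apical polarity complex whose Crumbs proteins EPB41L5 binds, were the list with the most calls in SIRT7-KO: 4 of 8 measured were lower and none higher, beside 4.05% of all genes lower. The lists were chosen with earlier results known, so nothing is read from this rank. CRB3, the Crumbs protein of epithelia, had 112 reads in USP39-KO, 28 in SIRT7-KO and 215 in the control (log2 ratio to control -0.70 and -2.67). CRB2 was lower in both knockouts, with 30, 18 and 72 reads (-1.01 and -1.72), although a prior of 2 counts ended the call in USP39-KO. CRB1 (-1.98, -5.42 to -0.01, from 2 reads against 11) and the scaffold PATJ (-1.01, -1.24 to -0.79) were lower in SIRT7-KO and were not called there without a normalization factor. CRB1 passed the filter only through its control count, so it could be kept only as a lower gene. With at least 100 counts required, CRB3 and PATJ were the genes of this list still called in SIRT7-KO. PALS1 was level (0.01 and -0.02) and MPP7 had 0.63 and 0.76. Within 1.5-fold of the control lay 3 of the 8 in each knockout, beside 86.3% of all genes in USP39-KO and 81.0% in SIRT7-KO. The list medians were -0.29 in USP39-KO and -0.52 in SIRT7-KO.

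Of 10 measured kinases and calmodulins that act on adducin or on protein 4.1, PRKCB was the 1 called. It had 42 reads in USP39-KO, 127 in SIRT7-KO and 18 in the control (log2 ratio to control 1.43, 0.63 to 2.35, and 3.03, 2.35 to 3.87). PRKCA, a more abundant isoform by reads, had -0.30 and 0.26. The list medians were -0.10 in USP39-KO and 0.15 in SIRT7-KO.

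**Figure D5:**
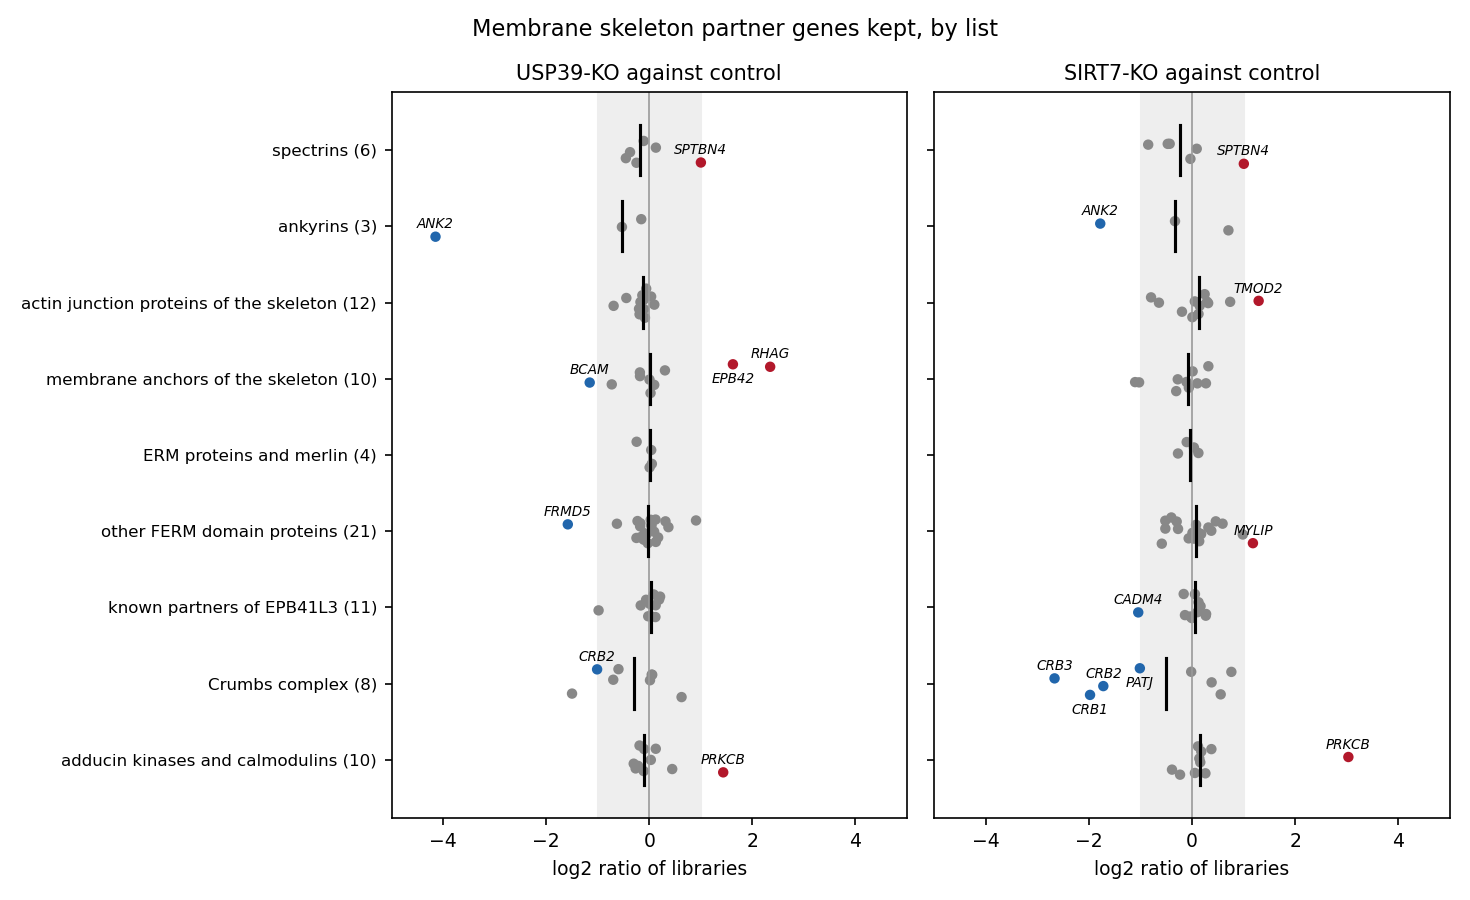
Log2 ratio of each kept partner gene, by list (number kept in brackets), for USP39-KO against control and SIRT7-KO against control; black ticks are list medians, grey shading spans less than 2-fold, and called genes are named in red (higher) or blue (lower). The 4 called Crumbs complex genes lie left of the shading in SIRT7-KO, and PRKCB lies right of it in both panels.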

How the data were processed

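Per the labels' protocols, Trizol RNA went into TruSeq RNA libraries. The authors deposited 1 table with gene length, read counts and FPKM for 3 libraries, per the file headers; the counts are whole numbers per gene, not normalized. The FPKM values deposited by the authors equal counts scaled by length and library total within a relative tolerance of 1e-06 and were not used. Aligner, counter and build: not given in the sources used here.

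TMM factors from edgeR 4.0.16 gave effective library sizes; log2 ratios had a prior of 0.5 counts, in proportion to library size, and a gene was kept if any library reached 10 counts. Printed folds are ratios of CPM without the prior. No replicates exist, so neither edgeR nor DESeq2 tests were run. The ratio, interval and call steps were run on simulated Poisson counts at the same effective library sizes. Those counts hold no spread beyond counting error and do not test the TMM step. Limits for 0 reads use 3 counts per library, and, without molecular identifiers, reads may be copies of 1 molecule. Symbols and coordinates came from GENCODE 29 and a gene name table by Ensembl identifier. RefSeq promoter windows matched 9 of 10 members.

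Members, lists, alternatives and naming rules were chosen with earlier results of these data known. All members, every partner gene past the rule (otherwise the largest ratio among genes of at least 100 counts) and the 5 most alike genes are named. Abundant or directly related partners, the genes beside ADD3 and called neighbours, SNX27, DMTN, TPM1 and single markers were named after their values were seen.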

Additional observations from a re-analysis of the deposited data

How the results depend on the processing

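No paired analysis was possible because each group has 1 library. The calls of EPB41L3 and ADD3 held under each of 8 other settings of normalization, filter, prior and size rule, in all 3 comparisons; EPB41L4A was lost in both knockouts with at least 100 counts, where 2 members were called. All 108 log2 ratios of members under other normalizations or a prior of 2 counts stayed within the counting intervals. Partner counts, whose alternatives were chosen after seeing the data, were 8 in USP39-KO against control, 10 in SIRT7-KO against control and 9 in SIRT7-KO against USP39-KO. With at least 100 counts they were 3, 6 and 3, with a 1.5-fold rule 15, 19 and 17, and with a 3-fold rule 3, 5 and 4, since each rule keeps fewer or more genes by construction. All genes called were 618, 899 and 1087; with at least 100 counts they were 174, 346 and 502, with the 1.5-fold rule 1220, 1914 and 2322, and with the 3-fold rule 314, 450 and 503. With at least 10 counts, 1 of the 5 genes most like EPB41L3 and 1 of the 5 most like ADD3 were shared. Members with few reads, such as EPB41L4A, have wide intervals at this depth, and no setting replaces replicate libraries.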
